A study of Rattus norvegicus with 84 samples.

Results

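Myelin is the spiralled membrane with which oligodendrocytes wrap axons in the brain. It is made of a small set of structural proteins, a lipid mixture rich in galactolipids and cholesterol, and adhesion and channel proteins that hold the sheath to the axon. The genes described here are 32 myelin and mature oligodendrocyte genes, taken by name from the deposited table of counts per gene. All 32 of the 32 listed names were among its 41919 genes. They comprise 14 genes of myelin and myelin-associated proteins, 9 of lipid and metabolite enzymes, 2 transcription factor genes and 7 others that encode receptor, node, matrix and transport proteins. All 32 passed the filter on low counts in each fit across all libraries or within a subregion, with 30 to 35247 counts per gene and library.

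Total RNA came from the nucleus accumbens of wild-type Long-Evans rats, a ventral striatal region with a core and a shell, here called Core and Shell as labelled. The study asked how cocaine abstinence, in the form of withdrawal or extinction, acts on RNA in these subregions. Each library belongs to 1 of 3 conditions (Ext, HC, Ctx) and 1 of 2 drug groups, Coc for cocaine or Sal for saline. This gives 12 groups of 7 libraries, 84 in all and 42 per subregion. Ext stands for extinction. The meaning of HC and Ctx, the doses, the time points and the animals' age were not in the labels used here. Whether libraries stand for separate animals is also not stated, and the p-values then measure only how far these libraries spread, which may be technical. In tissue RNA, fewer oligodendrocytes and less of a transcript per oligodendrocyte cannot be told apart.

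Libraries held 13628550 to 22494761 counts. Core libraries carry the series numbers 1, 2 and F in their titles and Shell libraries 3, 4 and F, so F alone holds both subregions, with 2 libraries in each group. Receptor genes of the olfactory and vomeronasal systems (1845 genes), which brain tissue barely transcribes, served as a measure of counts that come from no transcript of the gene. They made up 0.00642% to 0.210% of the counts in 83 libraries. In Core Ctx Coc library 17-F they made up 0.382%, and the 32 members held 0.123% of the counts there. Where leaving 17-F out moved a count or a median of the members by much, both values are given. Ppp1r1b, a phosphoprotein of dopamine signalling in striatal projection neurons, had a mean level of 8.64 log2 CPM in Core and 8.23 in Shell. With no tissue from outside the accumbens to compare, this level does not test the labelled striatal origin. CPM here is the usual unit of counts normalised to the effective library size that TMM scaling gives.

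The members together held more of the RNA in Core than in Shell. Their share of all counts ran from 0.260% to 0.713% in the 41 Core libraries other than 17-F, with a median of 0.441%. In the 42 Shell libraries it ran from 0.135% to 0.218%, with a median of 0.179%. Apart from 17-F the 2 ranges of this share did not overlap, but those of the mean log2 CPM of the members did. On that scale Shell Ctx Sal library 3-18 stood at 5.27, above Core Ctx Coc library 2-14 at 5.07. The mean of the 32 log2 CPM values was 6.06 ± 0.68 in Core (6.12 ± 0.55 without 17-F, n = 41) and 4.88 ± 0.26 in Shell (SD, n = 42).

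Per kilobase of gene, Cnp stood highest of the members in both subregions. Cnp encodes cyclic nucleotide phosphodiesterase, a protein of the non-compact myelin cytoplasm. Its median level was 30.5 CPM per kilobase in Core and 11.4 in Shell. It was followed by Mobp at 25.4 and 8.50, Ermn at 12.9 and 4.29, Mbp at 9.24 and 3.49, and Tf at 6.84 and 2.49. These 5 genes kept the same ranks in the 2 subregions. The lowest were Ninj2, at 0.463 in Core and 0.306 in Shell, and Aspa, at 0.468 and 0.312. The length is the one the deposited FPKM values imply, which spans introns for long genes (110527 bases for Mbp, 6560 for Cnp). Levels of long genes per kilobase are therefore low relative to their spliced transcripts.

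**Figure D1:**
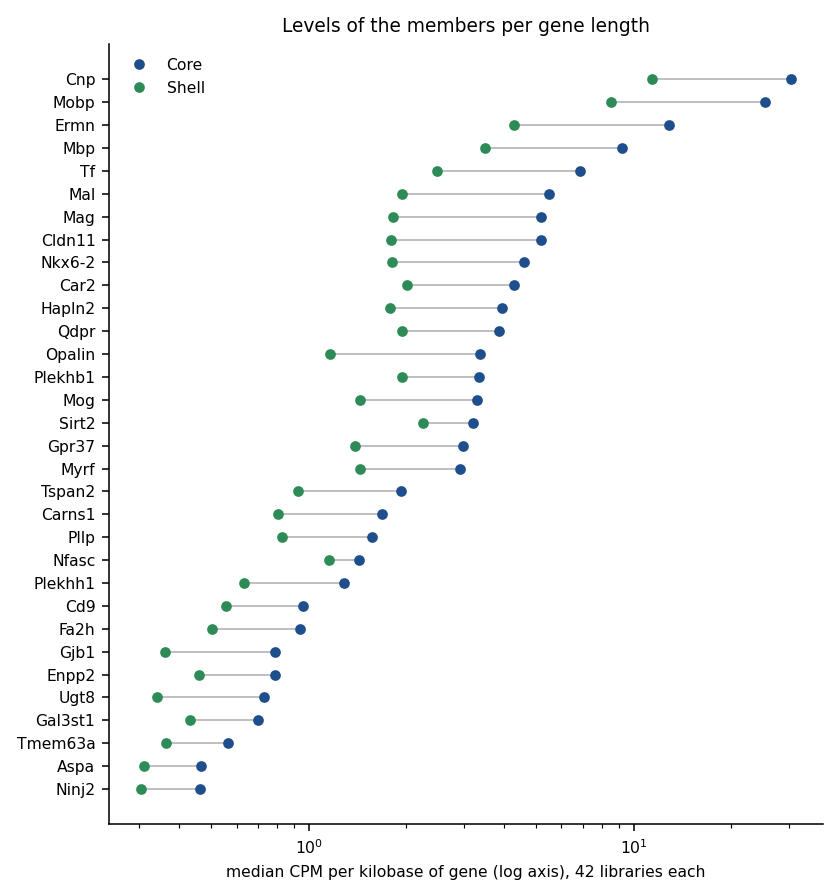
Median level of each member in CPM per kilobase of gene (x axis, log scale) in 42 Core libraries (blue) and 42 Shell libraries (green), ordered by the Core level. The Shell point lies left of the Core point for all 32 genes, and Cnp and Mobp lead in both.

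Mbp, myelin basic protein, holds the cytoplasmic faces of compact myelin together and had the most counts of the members. In Core it ran from 686 to 2607 CPM with a median of 1042 in HC Sal, from 680.1 to 2525 CPM with a median of 1408 in HC Coc and from 883 to 2496 CPM with a median of 976 in Ctx Sal. In Ctx Coc the range was 85.1 to 1954 CPM with a median of 982, the lowest value being 17-F, and without it 496 to 1954 CPM. Ext Sal ran from 685 to 2298 CPM with a median of 1002, and Ext Coc from 761 to 2760 CPM with a median of 1560. The 6 Core groups overlapped over most of their range. In Shell the ranges were 339 to 419 CPM with a median of 402 in HC Sal, 229.8 to 618 CPM with a median of 402 in HC Coc, and 233 to 746 CPM with a median of 383 in Ctx Sal. They were 267 to 449 CPM with a median of 367 in Ctx Coc, 171 to 536 CPM with a median of 374 in Ext Sal, and 276 to 439 CPM with a median of 358 in Ext Coc. The Shell groups also overlapped one another, and every Shell median lay below every Core median. On the log2 scale the mean was 10.22 ± 0.91 in Core and 8.54 ± 0.39 in Shell (SD, n = 42 each).

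The other structural genes had the same order of subregions. Mobp encodes a second basic protein of compact myelin, with Core medians of 717 CPM in HC Sal, 1003 in HC Coc, 830.4 in Ctx Sal, 673 in Ctx Coc, 674 in Ext Sal and 1183 in Ext Coc. Its Shell medians were 263 CPM in HC Sal, 257 in HC Coc, 244 in Ctx Sal, 253 in Ctx Coc, 256 in Ext Sal and 255 in Ext Coc. Single libraries ranged over 337 to 2108 CPM in Core without 17-F and 119.6 to 580.1 in Shell. Mag is an adhesion protein of the innermost myelin membrane, facing the axon. Core medians of Mag were 80.9 CPM in HC Sal, 99.6 in HC Coc, 80.3 in Ctx Sal, 67.2 in Ctx Coc, 75.0 in Ext Sal and 115 in Ext Coc. In Shell the medians of Mag were 27.8 CPM in HC Sal, 30.0 in HC Coc, 27.7 in Ctx Sal, 27.9 in Ctx Coc, 30.3 in Ext Sal and 28.1 in Ext Coc. Mog lies on the outer surface of the sheath. For Mog the Core medians were 33.6 CPM in HC Sal, 40.4 in HC Coc, 34.8 in Ctx Sal, 28.6 in Ctx Coc, 30.2 in Ext Sal and 45.5 in Ext Coc. Those of Shell were 14.9 CPM in HC Sal, 15.6 in HC Coc, 14.6 in Ctx Sal, 16.0 in Ctx Coc, 14.8 in Ext Sal and 14.7 in Ext Coc. The highest Core median of all 3 genes was in Ext Coc and the lowest in Ctx Coc. Without 17-F the Ctx Coc median of Mobp was 689 CPM, above that of Ext Sal, while those of Mag and Mog were still the lowest.

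Cnp had Core medians of 196 CPM in HC Sal, 231 in HC Coc, 204 in Ctx Sal, 159.9 in Ctx Coc, 178 in Ext Sal and 288 in Ext Coc. In Shell, Cnp medians were 77.5 CPM in HC Sal, 81.0 in HC Coc, 74.6 in Ctx Sal, 70.2 in Ctx Coc, 74.8 in Ext Sal and 72.2 in Ext Coc. Cldn11 forms the tight junctions of central myelin, and its Core medians were 71.3 CPM in HC Sal, 79.1 in HC Coc, 65.9 in Ctx Sal, 57.6 in Ctx Coc, 66.7 in Ext Sal and 106 in Ext Coc. Shell medians of Cldn11 were 24.9 CPM in HC Sal, 23.4 in HC Coc, 23.4 in Ctx Sal, 23.1 in Ctx Coc, 27.1 in Ext Sal and 23.8 in Ext Coc. Opalin, a membrane glycoprotein of oligodendrocytes, departed from this pattern within Core: its highest Core median was in Ctx Sal and its lowest in HC Sal. The values for Opalin were 51.2 CPM in HC Sal, 75.5 in HC Coc, 82.2 in Ctx Sal, 57.9 in Ctx Coc, 58.6 in Ext Sal and 74.0 in Ext Coc in Core. They were 21.2 CPM in HC Sal, 21.4 in HC Coc, 18.5 in Ctx Sal, 21.0 in Ctx Coc, 21.7 in Ext Sal and 21.3 in Ext Coc in Shell. Opalin in single libraries ranged over 28.8 to 136 CPM in Core without 17-F and 13.4 to 51.9 in Shell, so the groups of a subregion overlapped.

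Of the regulators, Myrf, a transcription factor needed for the expression of myelin genes, had Core medians of 91.9 CPM in HC Sal, 106 in HC Coc, 102 in Ctx Sal, 82.4 in Ctx Coc, 94.5 in Ext Sal and 124 in Ext Coc. Shell medians of Myrf were 49.7 CPM in HC Sal, 48.6 in HC Coc, 44.2 in Ctx Sal, 48.7 in Ctx Coc, 45.7 in Ext Sal and 43.6 in Ext Coc. Ugt8 makes galactosylceramide, the main galactolipid of myelin. Its medians were 49.9 CPM in HC Sal, 56.0 in HC Coc, 47.8 in Ctx Sal, 43.6 in Ctx Coc, 48.0 in Ext Sal and 63.4 in Ext Coc in Core. In Shell, Ugt8 medians were 23.7 CPM in HC Sal, 24.1 in HC Coc, 21.6 in Ctx Sal, 23.1 in Ctx Coc, 25.02 in Ext Sal and 21.8 in Ext Coc, a range narrower than that of Core. Hapln2, a link protein of the matrix at nodes of Ranvier, had medians of 30.2 CPM in HC Sal, 37.8 in HC Coc, 28.7 in Ctx Sal, 28.7 in Ctx Coc, 27.4 in Ext Sal and 42.2 in Ext Coc in Core. Its Shell values were 16.1 CPM in HC Sal, 14.4 in HC Coc, 13.4 in Ctx Sal, 13.0 in Ctx Coc, 12.4 in Ext Sal and 12.3 in Ext Coc. For all 32 members every 1 of the 6 Shell medians was below all 6 Core medians, which held for 3.34% of the 32145 genes tested. Core Ctx Coc had the lowest Core median for 24 members (25% of all genes), and for 14 without 17-F (17.9%). Core Ext Coc had the highest for 24 (22.3%), and for 24 without 17-F (22.6%). For most of these 24, Mbp and Mobp among them, the Ext Coc median of 7 was the value of library 1-2. The genes are therefore not separate evidence of an order of groups.

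**Figure D2:**
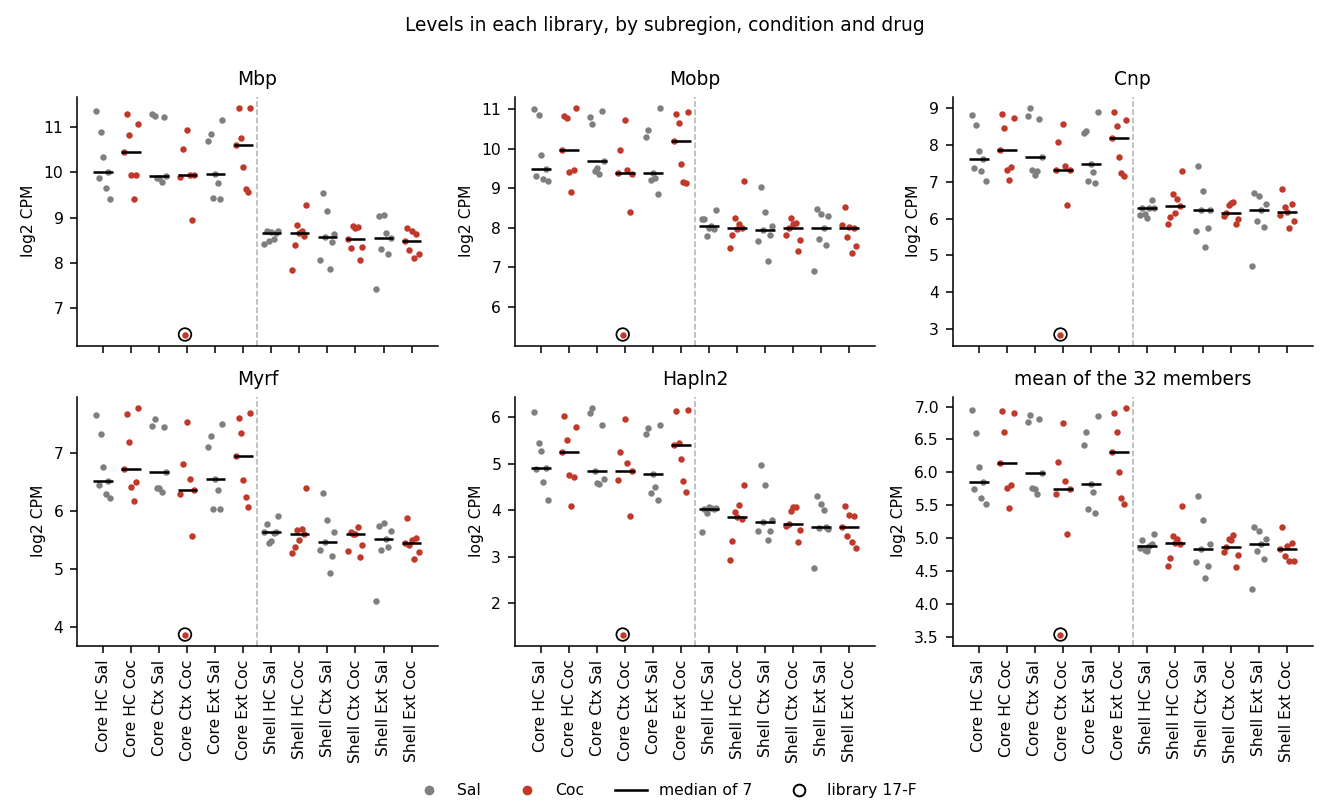
Level in log2 CPM (y axis) of 5 members and of the mean of the 32 in each of the 84 libraries, by group (x axis; grey points Sal, red points Coc, bars the median of 7). The Shell medians lie below the Core medians, the groups within a subregion overlap, and the ringed Core Ctx Coc library 17-F lies below all others (6.41 log2 CPM for Mbp).

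Promoters were read to show sequence near the starts of members that fell together in Shell. The RefSeq promoter table (rat build GRCr8, not the build of the counts) held 29 promoters of 27 members, and the 250 bases before each start were searched on both strands. CTGGCAC or CTGGTAC, a core of the motif that Myrf binds, was in 7 of 29 (24.1%) and in 5.48% of all 33469 promoters of that length. ACAAAG, a motif of SOX factors such as Sox10, was in 24.1% against 16.3%, and ACAATG in 13.8% against 11.1%. CAGCTG, an E-box, was in 24.1% against 12.0%, GGGCGG in 48.3% against 30.5% and TATAAA in 6.90% against 12.9%. Median GC content was 60.4% in the members' promoters and 51.2% in all. These are matches of letters, not sites of binding, and the promoters of members differ in GC content from the rest. The promoters of Opalin, Mag, Cnp and Hapln2 are shown because each holds both a CTGGCAC and an ACAAAG match. They lie at chr1:249858191-249858440 (minus strand), chr1:95291045-95291294 (minus), chr10:86011254-86011503 (plus) and chr2:175794439-175794688 (minus). Capitals mark matches to these SOX, Myrf and E-box motifs on either strand, and the last base is the one before the start.
Opalin: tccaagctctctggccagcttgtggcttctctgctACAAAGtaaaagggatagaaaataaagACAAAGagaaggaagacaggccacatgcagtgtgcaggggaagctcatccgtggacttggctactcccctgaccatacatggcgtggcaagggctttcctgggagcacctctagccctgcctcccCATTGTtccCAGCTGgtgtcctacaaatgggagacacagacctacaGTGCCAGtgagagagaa
Mag: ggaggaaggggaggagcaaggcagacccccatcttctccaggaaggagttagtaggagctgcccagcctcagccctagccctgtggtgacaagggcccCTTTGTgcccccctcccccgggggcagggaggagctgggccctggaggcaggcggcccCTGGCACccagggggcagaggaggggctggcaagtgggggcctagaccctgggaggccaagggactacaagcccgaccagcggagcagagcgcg
Cnp: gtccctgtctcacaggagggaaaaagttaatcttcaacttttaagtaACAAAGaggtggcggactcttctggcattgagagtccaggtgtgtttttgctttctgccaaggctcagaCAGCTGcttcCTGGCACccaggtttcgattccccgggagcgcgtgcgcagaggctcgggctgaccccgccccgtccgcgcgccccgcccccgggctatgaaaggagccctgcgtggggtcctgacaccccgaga
Hapln2: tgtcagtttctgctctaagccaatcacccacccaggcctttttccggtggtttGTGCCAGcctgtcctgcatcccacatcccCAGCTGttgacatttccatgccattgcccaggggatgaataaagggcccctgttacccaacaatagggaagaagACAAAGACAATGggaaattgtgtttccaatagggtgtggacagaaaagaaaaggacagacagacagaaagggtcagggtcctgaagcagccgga
In Hapln2 an ACAAAG and an ACAATG stand side by side. Opalin, Cnp and Hapln2 also hold a CAGCTG. The Mobp promoter, not printed, has 8 ACAAAG matches and no CTGGCAC or CTGGTAC.

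The first comparison asked how the subregions differ over all conditions and both drugs. All 32 members were lower in Shell by edgeR's quasi-likelihood test over 84 libraries (adjusted p under 0.05), with a median log2 fold change of -1.32. Of all 32145 genes tested, 8.77% were called lower and 43% had an estimate below 0. Mobp fell furthest, by a log2 fold change of -1.98 ± 0.15 (SE), 3.94-fold (adjusted p = 6.9e-18). Mbp changed by -1.82 ± 0.14, 3.54-fold (adjusted p = 1.5e-17). The smallest changes were those of Nfasc at -0.49 ± 0.08 (adjusted p = 4.6e-06) and Ninj2 at -0.65 ± 0.04. Nfasc encodes neurofascin, an adhesion protein that neurons at nodes also make. Without 17-F all 32 were again lower, from -2.01 (Mobp) to -0.51 (Nfasc), with 13.7% of all genes called lower.

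Among structural proteins, all 14 fell, with a median of -1.68. Ermn, a cytoskeletal protein of mature oligodendrocytes, changed by -1.87 ± 0.15. Mag changed by -1.75 ± 0.15, Mal, a raft protein that sorts myelin membrane, by -1.74 ± 0.14, and Opalin by -1.74 ± 0.13. Cldn11 (-1.70 ± 0.14), Cnp (-1.67 ± 0.16) and Mog (-1.50 ± 0.13) lay near them. The tetraspanins Tspan2 (-1.35 ± 0.11) and Cd9 (-0.91 ± 0.07), the gap junction gene Gjb1 (-1.12 ± 0.09), Plekhb1 (-1.14 ± 0.13) and plasmolipin, Pllp (-1.04 ± 0.09), fell less far than the basic proteins.

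All 9 enzyme genes fell, with a median of -0.99, and the members of one lipid pathway differed in size. Ugt8, which starts galactolipid synthesis, changed by -1.38 ± 0.10. Fa2h, which hydroxylates the fatty acids of these lipids, changed by -0.99 ± 0.06. Gal3st1, which adds the sulfate of sulfatide, changed by -0.73 ± 0.05. Car2, a carbonic anhydrase, changed by -1.35 ± 0.13, Carns1, carnosine synthase, by -1.30 ± 0.10, and Qdpr, a pterin reductase, by -1.18 ± 0.13. Enpp2, the secreted enzyme autotaxin, changed by -0.99 ± 0.09, the deacetylase Sirt2 by -0.78 ± 0.12, and Aspa, which breaks down N-acetylaspartate, by -0.67 ± 0.06. Differences between genes in this fold change were not tested.

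Both transcription factor genes fell: Nkx6-2, a homeodomain factor, by -1.55 ± 0.14 and Myrf by -1.29 ± 0.12. The other 7 members fell with a median of -1.22. Tf, transferrin, an iron carrier that oligodendrocytes make, changed by -1.76 ± 0.15, the receptor Gpr37 by -1.42 ± 0.13 and Hapln2 by -1.38 ± 0.14. Plekhh1 changed by -1.22 ± 0.10 and Tmem63a, a mechanosensitive ion channel, by -0.67 ± 0.05. Ninj2 and Nfasc had the smallest changes of the 32, as given above. Gal3st1, Tmem63a, Aspa and Ninj2, all with small folds, had the lowest Core levels per kilobase (0.699, 0.565, 0.468 and 0.463 CPM). Ugt8 (0.728) and Nfasc (1.43) departed from this order. In 17-F, Ninj2 stood at 41.6 CPM and Cnp at 7.14, against Core medians of 47.3 and 199.8. The part of counts that come from no transcript in the fold sizes was not tested.

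**Figure D3:**
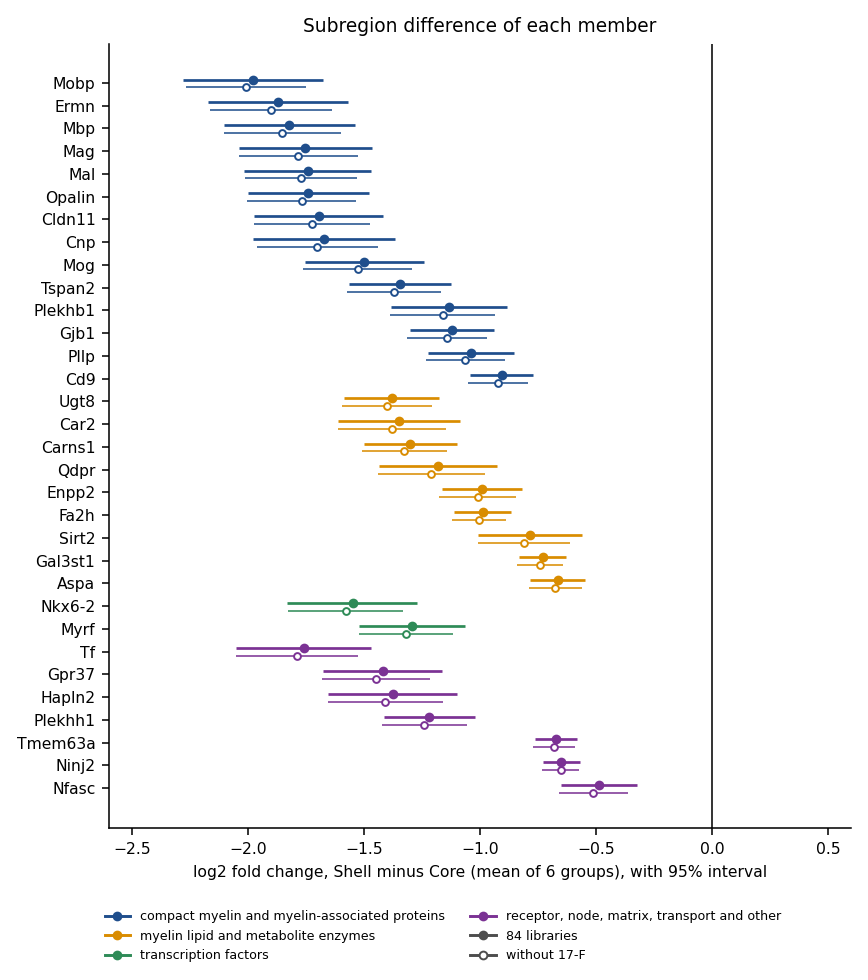
Log2 fold change, Shell minus Core, averaged over the 6 groups of condition and drug (x axis), with its 95% interval, for each of the 32 members, coloured by role. Filled points are 84 libraries and open points leave out 17-F; all intervals lie below 0, from Mobp at -1.98 to Nfasc at -0.49.

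The size of the fold and the separation of single libraries did not follow each other. All 42 Shell libraries lay below all 42 Core libraries for Ninj2 alone (0.0218% of all genes). Ninj2 had among the smallest folds and the lowest adjusted p of the members (5.5e-22). Setting 17-F aside added Fa2h and Tmem63a (3 members, 0.0467%). For 28 members, all 42 Shell libraries lay below the Core mean (0.933%). For Mbp 37 Shell libraries, and for Mog 16, were below each of the 41 Core libraries.

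Within single groups of 7 against 7 the members were lower in Shell in every condition and drug, though not all passed the test. In Ext Coc 32 of 32 passed (1.48% of all genes lower), in HC Coc 29 (1.1%), in Ext Sal 29 (0.787%), in HC Sal 27 (0.619%) and in Ctx Sal 30 (1.22%). Fitted on the Ext Sal libraries alone, 0 passed there. The medians were -1.60 in Ext Coc, -1.40 in HC Coc, -1.29 in Ext Sal, -1.23 in HC Sal and -1.41 in Ctx Sal. In Ctx Coc 4 passed (0.0591%) with a median of -0.96. Without 17-F, 26 passed in Ctx Coc (0.361%) with a median of -1.15, and fitted on the Ctx Coc libraries alone 0 passed. In each of the 6 groups Mobp had the largest fall of the members, from -1.56 in Ctx Coc to -2.30 in Ext Coc.

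Series and subregion coincide in the numbered libraries, so the F libraries, 12 of each subregion, were also fitted alone. There 8 members passed as lower (0.176% of all genes), with a median of -1.50. Without 17-F, 31 passed (1.22%), with a median of -1.65, and Nfasc had a log2 fold change of -0.71 (adjusted p = 0.0543). That fit leaves 1 Core Ctx Coc library, which is assumed to vary like the others. In the F libraries other than 17-F, the receptor share was mostly lower in Core than in Shell. Neither F fit held the receptor level as a covariate, and its part in these folds was not tested. For 7 members the 12 F Shell libraries lay below the 11 other F Core libraries (0.202%). With the numbered series alone, all 32 were lower (7.08%), with a median of -1.28.

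Other genes of the lineage were lower in Shell as well. Of 22 other genes of mature oligodendrocytes, 20 fell and 0 rose, with a median of -0.94, among them Cryab (-1.95 ± 0.14), Anln (-1.12 ± 0.07) and Lpar1 (-0.84 ± 0.06). Of 15 lineage transcription factors, 11 fell and 0 rose, with a median of -0.54, and those of lowest p were St18 (-1.04 ± 0.07), Zfp536 (-0.46 ± 0.04) and Zfp488 (-0.56 ± 0.05). Of 11 genes of precursors and newly formed oligodendrocytes, 10 fell and 0 rose, with a median of -0.38. These included Bcas1 (-1.48 ± 0.12), Bmp4 (-0.59 ± 0.07) and Tns3 (-0.38 ± 0.03). Each of these 3 medians was nearer 0 than that of the members, and the difference between lists was not tested.

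Of 18 genes of sterol synthesis and uptake, 4 fell and 0 rose, with a median of -0.15. Cyp51 (-0.34 ± 0.10) and Mvk (-0.22 ± 0.06) were among those that fell. Of 15 genes for sphingolipids and very long chain fatty acids, 4 fell and 0 rose (median -0.09), among them the fatty acid elongases Elovl1 (-0.83 ± 0.10) and Elovl7 (-0.49 ± 0.04) and the ceramide synthase Cers2 (-0.57 ± 0.08). Of 11 axonal proteins of nodes and paranodes, 3 fell and 0 rose (median -0.16): Cntn2 (-1.21 ± 0.12), which oligodendrocytes also make, Cntnap2 (-0.44 ± 0.07) and the potassium channel Kcna1 (-0.37 ± 0.13). Without 17-F the counts that fell were 8, 7 and 4. With the receptor level as a covariate the medians of these 3 lists were 0.04, 0.03 and 0.19, and Cyp51 (0.02) and Kcna1 (0.09) had estimates above 0. In that fit 7 sterol genes rose and 1 fell, 4 sphingolipid genes rose and 3 fell, and 8 node genes rose and 2 fell.

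Some markers of other cell types also differed. Of 10 astrocyte genes, 2 fell, Gfap (-1.61 ± 0.17) and Aqp4 (-0.74 ± 0.13), and Agt rose (0.84 ± 0.13), with a list median of -0.18. Of 9 microglial genes, 7 fell (median -0.32), and those of lowest p were Trem2 (-0.34 ± 0.06), Tmem119 (-0.35 ± 0.07) and Csf1r (-0.30 ± 0.07). Of 6 endothelial genes 1 fell, Flt1 (-0.14 ± 0.03), while Emcn (0.22 ± 0.09) and Slco1a4 (-0.20 ± 0.08) did not pass. Of 10 projection neuron genes 4 fell and 1 rose (median -0.25), among them Penk (-0.94 ± 0.16), Ppp1r1b (-0.57 ± 0.16) and Adora2a (-0.45 ± 0.11). Of 8 general neuron genes Rbfox3 fell (-0.19 ± 0.07) and Stmn2 rose (0.41 ± 0.09), and Nefh did not pass (0.40 ± 0.15). With the receptor level as a covariate, 7 astrocyte genes rose and 2 fell, 2 microglial genes rose and 4 fell, 4 projection neuron genes rose and 1 fell, and 7 general neuron genes rose and 0 fell. Without 17-F, 4 astrocyte genes fell and 1 rose, 1 endothelial gene fell and 2 rose, and 1 general neuron gene fell and 2 rose. The part of these cell types in the members' difference was not tested.

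Peripheral myelin and ventricular markers were checked as well. Of 5 Schwann cell genes Egr2 fell (-0.39 ± 0.09), while Prx (-0.08 ± 0.11) did not pass. With the receptor level as a covariate 3 of the 5 fell, with a median of -0.23. Of 5 choroid plexus and ependymal genes 0 passed by edgeR, and Ttr stood at 0.91 log2 CPM in Core and 1.36 in Shell. Kl (0.15 ± 0.09), Foxj1 (-0.18 ± 0.13) and Ttr (0.20 ± 0.18) had the lowest p of that list.

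The members' levels moved together from library to library. After removal of group and series means, the SD of a member was 0.61 log2 units in Core at the median over members (0.43 without 17-F) and 0.30 in Shell. Before that removal the SD was larger in Core than in Shell for all 32 members, 17-F aside, as it was for 95.7% of all genes. Pearson's r of a member with the mean of the other members had a median of 0.973 over 42 Core libraries (0.966 without 17-F) and 0.907 over 42 Shell libraries. These libraries share depth, series and background, and the TMM factor of a library enters the levels of all its genes. For comparison, 15452 other genes with a mean of at least 1 log2 CPM were set against the mean of the members. Their median r was 0.789 in Core (0.735 without 17-F) and 0.508 in Shell.

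Some members followed the rest less closely. Ninj2 had an r of 0.400 in Core and -0.578 in Shell, and Tmem63a 0.482 and -0.159. Gal3st1 (0.231) and Aspa (0.311) were also low in Shell. By contrast Myrf had an r of 0.995 in Core and 0.963 in Shell. Among the 10 genes outside the list most like the mean of the members over 42 Core libraries were Cntn2 (r = 0.996), Wscd1 (0.994), Gna12 (0.991), Pacs2 (0.991), Csrp1, Kif1c, Ppp1r16b, Bcas1, Lgi3 and Septin4 (0.989). Over 42 Shell libraries the 10 included Bcas1 (0.972), Septin4 (0.967), Cntn2 (0.962), Pygb (0.960), Pacs2, Prr18, Wscd1, Kndc1 and Ache (0.950). Cntn2, Wscd1, Pacs2, Bcas1 and Septin4 were in both sets.

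The receptor level moved against the members. Its r with the mean of the members was -0.86 in Core (-0.85 without 17-F) and -0.77 in Shell. The mean receptor share was 0.0788% in Core, with 17-F at 0.382% included, and 0.0918% in Shell. Most libraries with the lowest shares were Core libraries. The mean log2 level, the scale of the covariate, therefore differed more between the subregions than these means do. With the log2 receptor level as a covariate, all 32 members were still lower in Shell (11.8% of all genes called lower), with a median of -0.92 and a range from -1.48 (Mobp) to -0.21 (Nfasc). Without 17-F and with this covariate, all 32 were lower with a median of -0.97.

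**Figure D4:**
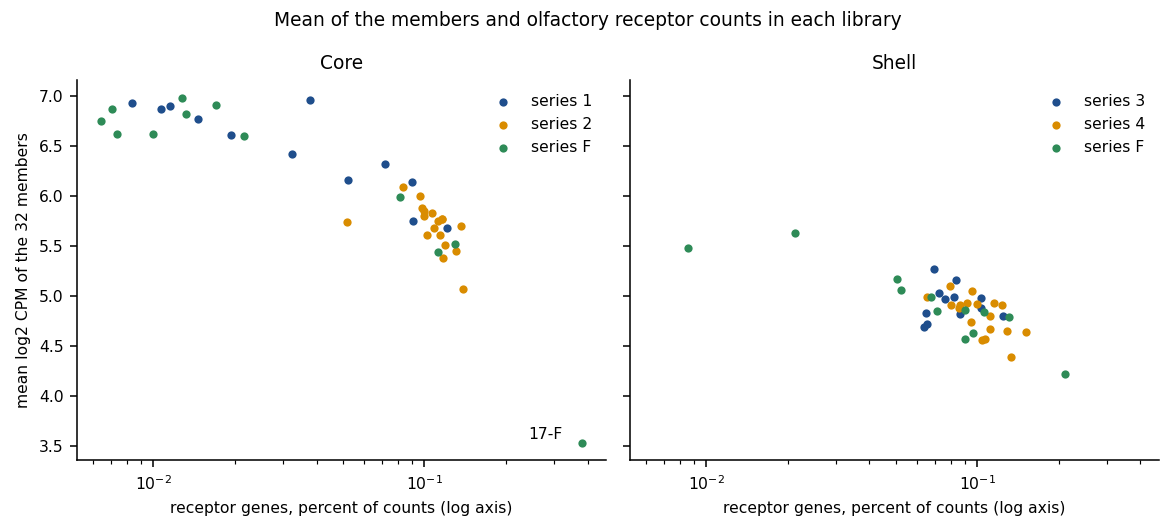
Mean log2 CPM of the 32 members (y axis) against the percent of counts on olfactory and vomeronasal receptor genes (x axis, log scale) in Core (left) and Shell (right), 1 point per library, coloured by series. The mean of the members is lower where the receptor share is higher, and 17-F lies at 0.382% and 3.53 log2 CPM.

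Series differed within Core. The median of Mbp was 1745 CPM for series 1, 947 for series 2 and 1867 for the F libraries. Series 2 was lower than series 1 for 31 of 32 members by edgeR, against 35.5% of all genes called lower and 67.3% called in either direction. The median log2 fold change was -0.86. Mbp was 2.01-fold lower (adjusted p = 0.0049), and Ninj2 did not pass (-0.14 ± 0.07). With DESeq2's size factors the members' median was -0.71, and that of all genes moved by 0.14. Levels in CPM also depend on the TMM factor of each library. Core Ext Coc libraries 1-2 and 1-3 held 0.539% and 0.545% of their counts on the members, while their mean log2 CPM was 6.31 and 6.90. The part of the scaling in the series difference was not tested. The mean receptor share was 0.0467% for series 1 and 0.108% for series 2, and with the receptor level as a covariate 0 members and 0% of all genes passed, with a median of -0.14. Between the F libraries and series 1 in Core 0 members passed (0.0159% of all genes), and 0 had an unadjusted p under 0.05. In Shell, Mbp medians were 418, 393 and 363 CPM in series 3, 4 and F. No member passed by edgeR there: 0 for 4 against 3 (0% of all genes), with 2 at an unadjusted p under 0.05, and 0 for F against 3 (0.0485%), with 0 at an unadjusted p under 0.05. Each series holds the same number of libraries of every group of its subregion.

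The drug comparisons asked whether cocaine and saline libraries differ in these genes. In none of the 8 comparisons of Coc with Sal did a member pass edgeR's test. Over drug, condition and interaction, 0 of 27 comparisons called a member or any other gene (0% of genes tested). Of the 864 estimates of members, 18 had an unadjusted p under 0.05. DESeq2's Wald test also called 0 members in these 27 comparisons. The values below are therefore descriptions. Members moved together from library to library, with a median r of 0.973 in Core and 0.907 in Shell. A direction shared by many members, in these or the condition comparisons, is therefore not separate evidence from each gene. The percent of all genes in that direction does not allow for this.

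In Core Ctx, all 32 estimates of Coc minus Sal were below 0 (48.3% of all genes were), with a median of -0.45 and a median SE of 0.31. Mbp medians were 982 CPM with cocaine and 976 with saline, which hardly differ, and the lowest of the 14 libraries was 17-F. Its log2 estimate was -0.55 ± 0.35 (adjusted p = 0.433). The estimates for Gal3st1 (-0.30 ± 0.12), Cd9 (-0.39 ± 0.17) and Gjb1 (-0.47 ± 0.21) had unadjusted p under 0.05 and adjusted p of 0.433. Leaving out 17-F brought the median to -0.27 (60.2% of all genes below 0) and left 0 members with an unadjusted p under 0.05. Scaling by DESeq2's size factors moved the median of all genes in this comparison by 0.12. The median of the members lay -0.48 from that of all genes under the first scaling and -0.54 under the other.

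In Core Ext, all 32 estimates were above 0 (43.3% of all genes were), with a median of 0.22. Mbp had an estimate of 0.29 ± 0.35 and Mog the highest at 0.30. In Core HC, 30 estimates were above 0 (42.2% of all genes), with a median of 0.11, and Mbp stood at 0.09 ± 0.35. Ninj2 (0.22 ± 0.11) had an unadjusted p of 0.048 and an adjusted p of 0.820 there. Over the 3 conditions the median was -0.04 in Core, and 0.01 without 17-F. The SE of Mbp exceeded its estimate in Ext and in HC. The receptor level, which moved against the members (r of -0.86 in Core), also differed between these groups. On the log scale its Core mean was lower in Coc than in Sal in Ext and HC, and higher in Ctx. These directions are opposite to those of the members, and the fits given here did not hold the receptor level as a covariate.

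No drug difference passed in Shell either. The medians of Coc minus Sal were -0.05 in Ext, 0.10 in HC, -0.12 in Ctx and -0.02 over the 3 conditions. Mbp had estimates of -0.07 ± 0.21 in Ext, 0.07 ± 0.21 in HC and -0.17 ± 0.21 in Ctx. Cldn11 had the lowest estimate in Ctx, at -0.33. In Shell 26 of 32 estimates were below 0 in Ext (53.2% of all genes), 6 in HC (52.3%) and 26 in Ctx (49.1%).

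**Figure D5:**
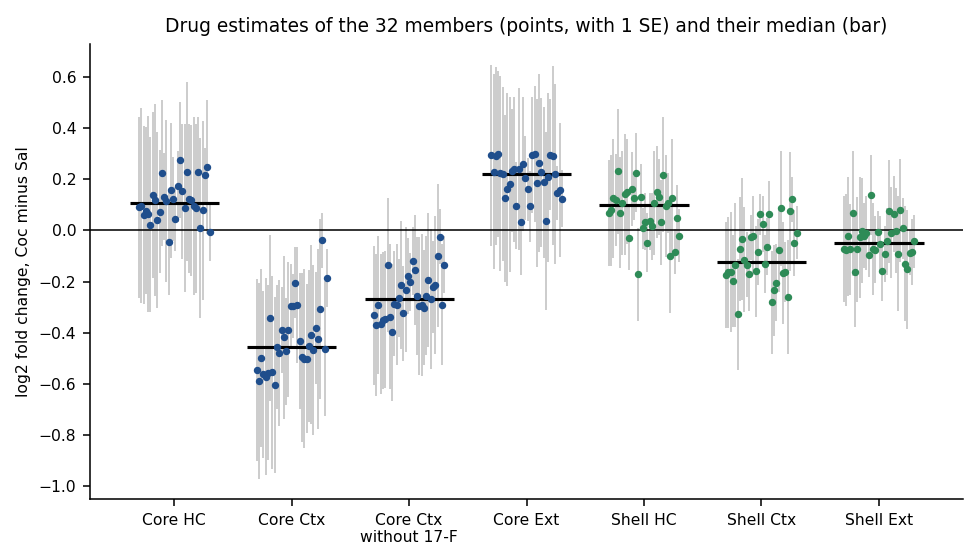
Log2 fold change of Coc minus Sal (y axis) for each of the 32 members, with 1 SE as grey bars and the median as a black bar, in each subregion and condition (x axis), and in Core Ctx without 17-F. The Core medians are 0.11 in HC, -0.45 in Ctx (-0.27 without 17-F) and 0.22 in Ext, and the Shell medians lie between -0.12 and 0.10.

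Conditions were compared within each drug, and 0 members passed in the 12 comparisons. Among Core cocaine libraries, all 32 estimates of Ext minus Ctx were above 0 (43.3% of all genes), with a median of 0.48 (0.30 without 17-F). Mbp stood at 0.60 ± 0.36 (adjusted p = 0.304). The genes Aspa, Enpp2, Fa2h, Gal3st1, Nfasc and Pllp had estimates of 0.27 to 0.50 with unadjusted p under 0.05, and without 17-F 0 members had. Ctx minus HC had a median of -0.44 (-0.26 without 17-F), with all 32 below 0 (44.8% of all genes). Aspa (-0.34 ± 0.14), Ninj2 (-0.27 ± 0.11) and Plekhh1 (-0.59 ± 0.26) had unadjusted p under 0.05. Ext minus HC had a median of 0.04. The comparisons of 1 drug share groups.

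Among Core saline libraries the medians were -0.04 for Ext minus HC, 0.10 for Ctx minus HC and -0.15 for Ext minus Ctx. In Shell the medians of all 6 condition comparisons lay between -0.17 and 0.08. Cd9 (-0.20 ± 0.09, Shell cocaine libraries, Ext minus HC) and Ninj2 (0.19 ± 0.09, Shell saline libraries, Ext minus Ctx) were the members with an unadjusted p under 0.05 there, with adjusted p of 0.464 and 0.509.

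Differences between drug effects were tested directly, and 0 members passed in the 7 comparisons. In Core the drug effect in Ctx minus that in HC had a median of -0.56 over members (-0.37 without 17-F), and in Ext minus HC of 0.10. Cd9 had an unadjusted p of 0.036 in the first of these (-0.52 ± 0.24, adjusted p = 0.351). In Shell the medians were -0.18 and -0.13. The drug effect in Shell minus that in Core had a median of -0.25 in Ext, -0.08 in HC and 0.42 in Ctx (0.27 without 17-F). Gal3st1 in Ctx (0.36 ± 0.18) and Ninj2 in HC (-0.31 ± 0.14) had unadjusted p under 0.05, with adjusted p of 0.964 and 1.00.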

How the data were processed

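Stranded total RNA libraries were made with the SMARTer Pico kit, per the labels' protocols. The deposited counts are reads per gene, counted by the authors; the submitters' processing notes name featureCounts and build mRatBN7.2, with the settings not given in the sources used here. The authors also deposited FPKM values, used here only for the gene lengths they imply, which were equal within 1% in all 84 libraries for 35642 genes. No 2 libraries were identical (0 pairs).

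Groups came from the labels. Counts were filtered with filterByExpr, scaled by TMM and tested with edgeR 4.0.16 (quasi-likelihood F test, R 4.3.3). Benjamini-Hochberg adjustment at 0.05 ran over all genes tested in each of 38 comparisons. Fits within a subregion held series (1, 2 and F, or 3, 4 and F) as a covariate. Fits over both subregions held only F against the numbered series, so they had no term for series 1 against 2 or 3 against 4. Core and Shell were fitted separately for drug and condition. Log2 CPM used a prior count of 2. DESeq2 1.42.0, other scalings and filters, libraries left out and the receptor covariate were alternatives. The edgeR steps were also run on simulated counts, drawn gene by gene without series differences or variation shared among genes. That run does not cover the shared variation of these libraries. The members and gene lists were chosen with earlier results of these data known. Levels by group are given for 10 members and the mean of the 32, other members by their tests, the 3 genes of lowest p in each other list, and the 10 genes most alike per subregion. Some genes that met these rules are not reported here. At the depths given above every member had at least 30 counts in each library.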

Additional observations from a re-analysis of the deposited data

Results flagged for a closer look

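In 132 groups of 7 libraries, over 11 values, 6 had a library whose gap to its nearest neighbour took an unusually large share of the group's range. For separate tests chance gives about 1 in 20, and 6 of 132 is not above that share. The 11 values move together, so the 132 are not separate tests. The count therefore does not decide whether any single library stands apart by chance. In Core Ctx Coc, library 17-F stood at 5.29 log2 CPM for Mobp (the other 6 lay between 8.396 and 10.73) and at 2.86 for Cnp (6.38 to 8.57), with a receptor share of 0.382%. In Shell Ext Sal, library 12-F stood at 4.45 for Myrf (5.33 to 5.804), with a receptor share of 0.210%. In Shell HC Coc, library 6-F stood at 6.404 for Myrf (5.28 to 5.69) and at 5.38 for Ugt8 (4.15 to 4.68), with a receptor share of 0.00860%. In Shell HC Sal, library 16-F stood at 3.54 for Hapln2 (3.94 to 4.07), with a receptor share of 0.0712%. The part of the receptor level in these values was not tested.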

How the results depend on the processing

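The number of members lower in Shell over the 6 groups stayed at 32 under 9 alternatives, with medians of -1.35 to -0.92, and fell to 8 with the F series alone and to 31 with F alone without 17-F. With F alone 0 members were called in each of the 6 single groups. In Ctx Coc the 4 calls became 24 with DESeq2's size factors, 28 with DESeq2's Wald test, 1 with no filter, 1 without F, 30 with the background covariate, 26 without 17-F and 0 with only the groups compared, which also gave 0 in Ext Sal. With the background covariate, Core series 2 minus 1 had 0 calls and a median of -0.14, F minus 1 had 11 calls and Shell F minus 3 had 1. That covariate gave medians of -0.95 (Ext Coc) and -0.78 (Ext Sal) for Shell minus Core, 0.16 for Shell Coc Ctx minus HC and 0.11 for the Shell interaction of Ctx. It moved the split of all genes from 1465 higher and 2818 lower to 9484 and 3794. Leaving out 17-F gave 4055 and 4399. F alone gave Shell medians of 0.34 (drug, Ext), -0.45 (drug, Ctx), -0.32 (Sal, Ext minus HC), -0.62 (Sal, Ext minus Ctx) and -0.64 (interaction, Ctx). Drug, condition and interaction medians are listed here only where they moved by at least the within-group spread of the members' mean. That spread was 0.27 in Shell, 0.67 in Core and 0.51 over both. Such Core medians ran from -0.56 to 0.48 in the fits above, so a move to 0 would not be listed. Estimates that changed sign were Cyp51 (0.0165, covariate), Kcna1 (0.0883, covariate, and 0.0295 also without 17-F), Kl (-0.0243 and -0.0354 likewise), Slco1a4 (0.0243 and 0.0434 likewise), Prx (0.33 with F alone, 0.63 also without 17-F) and Ttr (-0.0228 without F). Those of Mbp for Coc minus Sal were -0.077 without F and -0.19 with the covariate in Core HC, 0.52 with F alone in Shell Ext, -0.16 with the covariate in Shell HC, and 0.0072 without F and 0.0802 with the covariate in Shell Ctx. Other single genes kept direction and side in 906 fits, lost the call in 80 and gained it in 8. The cause of these changes was not tested.

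Title numbers could form 30 pairs of a Core and a Shell library. Same-numbered libraries had correlations of -0.345 to 0.525 (median 0.174, other pairings -0.00761), above 0.1 in 18 pairs, and 5 libraries were most like their own number. The numbers were not taken as pairs in the fits above, since the correlation did not pass 0.1 in every pair. True pairs could also fail that rule, so it does not decide whether the numbers mark pairs. Whether paired libraries share an animal is not stated. With the replicate block 32 members were lower, with a median of -1.18. At 7 libraries a group, the median SE of a drug estimate in Core Ctx was 0.31, which limits what could be detected.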
